A study of Rattus norvegicus with 4 samples.

Results

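HOX genes and T-box genes are families of transcription factors that give cells their address along the body. They were taken as all rat genes whose symbol is Hoxa, Hoxb, Hoxc or Hoxd with a number, or Tbx with a number, and whose RefSeq accession is carried by a probe on the array. The rule found 43 probes for 34 genes, of 45594 probes and 16580 named genes, with 25 HOX genes and 9 T-box genes among them. It used names only and no measured value. Vessels came from male rats of 2 genotypes, a knockout (KO) that lacks PKCbeta, the protein kinase C isoform encoded by Prkcb, and wild-type (WT) Wistar rats. Each genotype was studied without treatment and after 24 h with angiotensin II (Ang II), the peptide hormone that constricts arteries, which gave the groups KO Ang II, KO control, WT Ang II and WT control. Each group had 1 Agilent array hybridised with Cy3-labelled RNA, so that there were no replicates and no single comparison could be tested. The series names 4 rats per genotype without saying how they were shared among the arrays. It does not give the rats' age, the vessel, or whether whole rats or isolated vessels were treated.

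In vertebrate embryos the HOX genes lie in 4 clusters, A to D, and are switched on in the order in which they lie, numbered from 1 at the head end to 13 at the tail end. Low-numbered genes mark the hindbrain and neck, middle ones the trunk, and the highest-numbered ones the lumbar and tail levels, the limb ends and the urogenital tract. Smooth muscle cells and fibroblasts of adult vessel walls keep part of this code. T-box factors pattern the heart, the pharyngeal arches that give rise to the great arteries, and the limbs.

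Prkcb checked the genotype labels. The Prkcb probe with 10 spots read 1.89 on KO Ang II and 1.94 on KO control, against 18.0 on WT Ang II and 14.8 on WT control, in units of processed signal. It was flagged as well above background on both WT arrays and on neither KO array. A second Prkcb probe, with 1 spot, read 1.73 on KO Ang II, 1.90 on KO control, 12.2 on WT Ang II and 8.27 on WT control and was flagged on WT Ang II alone. Between 40.7% and 43.6% of all probes were well above background on an array, and the 75th percentile of signal, to which each array was scaled, was 52.1 on KO Ang II, 47.3 on KO control, 62.4 on WT Ang II and 58.7 on WT control. All levels below are log2 signal relative to that percentile. Ratios of level were taken between arrays for 1 probe. Different probes were set beside each other in the choice of a gene's probe, the split of genes by mean level and the sums of cell type markers. The tissue label was matched by markers of smooth muscle, of which 10 of 10 were well above background on all 4 arrays, and of endothelium, with 6 of 7.

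Of the 34 genes, 14 were well above background on all 4 arrays, 3 on some and 17 on none. The share on all 4 arrays was 41.2%, against 51.9% of all named genes. The share on at least 1 array was 50%, against 60.1% of all named genes. HOX genes made up 8 of the 14, from 25 with a probe, and T-box genes made up 6, from 9 with a probe. The arrays gave 31 of the 34 genes the same flag in every group, or 91.2%, and did so for 91.8% of all named genes. The plot of HOX genes by cluster and number shows the pattern.

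**Figure D1:**
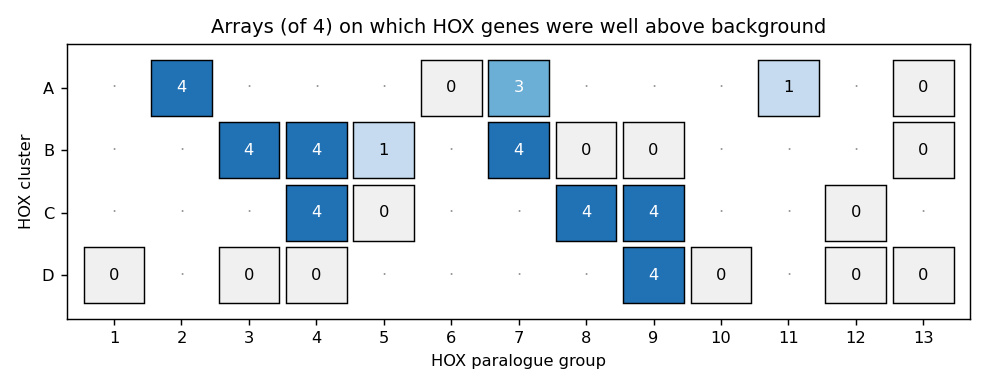
HOX genes by cluster (rows) and paralogue number (columns), coloured by the number of the 4 arrays on which the gene was well above background, with a dot where no gene is shown. Genes well above background on all 4 arrays lie at numbers 2 to 9, and at numbers 10 to 13 a single gene, Hoxa11, was flagged on any array.

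Along the HOX code, 8 of 18 genes of paralogue groups 1 to 9 (44.4%) were well above background on all 4 arrays and 8 on none, where 51.9% of all named genes were on all 4 and 39.9% on none. Among paralogue groups 1 to 4, 4 of 8 genes were well above background on all 4 arrays, namely Hoxa2, Hoxb3, Hoxb4 and Hoxc4. Groups 5 to 8 had 2 of 7, Hoxb7 and Hoxc8, and group 9 had 2 of 3, Hoxc9 and Hoxd9. Groups 10 to 13 had 0 of 7 on all 4 arrays and 1, Hoxa11, on some. By cluster the counts on all 4 arrays were 1 of 6 in A, 3 of 7 in B, 3 of 5 in C and 1 of 7 in D.

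Genes that were not well above background on any array included Hoxd1, Hoxd3 and Hoxd4, then Hoxc5, Hoxa6, Hoxb8 and Hoxb9, and at the tail end Hoxd10, Hoxc12, Hoxd12, Hoxa13, Hoxb13 and Hoxd13. Tbx5, Tbx20 and Tbx22 were not flagged either. In all there were 17 such genes, whose signals ran from 1.57 to 8.1 with a median of 1.88. A probe without the flag sets only a bound, and a probe can also fail to report its transcript. Of the 9 genes with 2 probes, 0 had both probes flagged on all 4 arrays. In 5 of them 1 probe was flagged on all 4 arrays and the other on fewer, and in 3 of these 5, Hoxb3, Tbx4 and Tbx18, the other was flagged on none. A further 21 genes of the 2 families in the RefSeq table had no matched probe and were not analysed here. They include 5 HOX genes of groups 10 to 13, Hoxa10, Hoxc10, Hoxc11, Hoxc13 and Hoxd11, as well as Hoxa3, Hoxa4, Hoxa5, Hoxa9, Hoxb6, Hoxc6 and Hoxd8, so the middle and the end of the code were only partly read.

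The labels say vessel and give no segment, and no array of a vessel of known position was at hand, so the segment was not determined. The values describe vessels in which 8 HOX genes, with numbers between 2 and 9, were measured on all 4 arrays. No gene of groups 5 and 6 was among them, and of the 7 genes with a probe in groups 10 to 13 none was.

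Among the front HOX genes, Hoxa2, which patterns the hindbrain and the second pharyngeal arch, had levels of 1.11 on KO Ang II, 1.33 on KO control, 0.80 on WT Ang II and 0.52 on WT control. Both KO arrays lay above both WT arrays on this probe. The second Hoxa2 probe, close to the background, went the other way. It read -2.62 on KO Ang II and -2.49 on KO control without the flag, and -2.25 on WT Ang II and -2.47 on WT control with it. Hoxb3, a hindbrain and pharyngeal gene, read 0.83 on KO Ang II, 1.04 on KO control, 1.05 on WT Ang II and 1.05 on WT control, a range of 0.22. Hoxb4, also known for driving expansion of blood stem cells, read 2.02 on KO Ang II, 2.22 on KO control, 1.91 on WT Ang II and 1.55 on WT control. Again both KO arrays were the higher, by 0.67 without Ang II and 0.11 with it. Hoxc4, a gene of the neck region, stood at 0.70 on KO Ang II, 1.11 on KO control, 0.21 on WT Ang II and 1.29 on WT control, lower on the Ang II array of each genotype.

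Of the trunk HOX genes, Hoxb7 varied little, with 0.49 on KO Ang II, 0.44 on KO control, 0.35 on WT Ang II and 0.59 on WT control. Hoxc8, a patterning gene of the thoracic spine, read -0.91 on KO Ang II, -1.36 on KO control, -1.82 on WT Ang II and -1.44 on WT control. Both group 9 genes were highest on WT control and lowest on KO Ang II. Hoxc9 gave signals of 23.1 on KO Ang II, 32.5 on KO control, 59.4 on WT Ang II and 134 on WT control, which are levels of -1.17 on KO Ang II, -0.54 on KO control, -0.07 on WT Ang II and 1.19 on WT control. Hoxd9 had 0.64 on KO Ang II, 0.85 on KO control, 1.03 on WT Ang II and 1.74 on WT control. Both KO arrays lay below both WT arrays in these genes. Such a lack of overlap was common. It held for 11 of the 14 genes well above background on all 4 arrays, 5 with both KO arrays higher and 6 with both lower, and for 63.9% of all named genes. The gap between the nearest KO and WT arrays was 0.47 for Hoxc9 and 0.18 for Hoxd9, and 0.02 or less for Hoxb3, Tbx6 and Tbx18.

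The 3 genes flagged on some arrays lay close to the background. Hoxa7 read -2.21 on KO Ang II, -2.89 on KO control, -1.77 on WT Ang II and -1.72 on WT control, and only KO control was not flagged. Hoxb5 was flagged on WT Ang II alone, at -2.63, beside -2.70 on KO control without the flag. Hoxa11, the one tail-end gene seen, was flagged by one probe on KO Ang II alone, at -2.30, and by its other probe on WT control alone, at -1.87. The plot of levels by array places these beside the other genes.

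**Figure D2:**
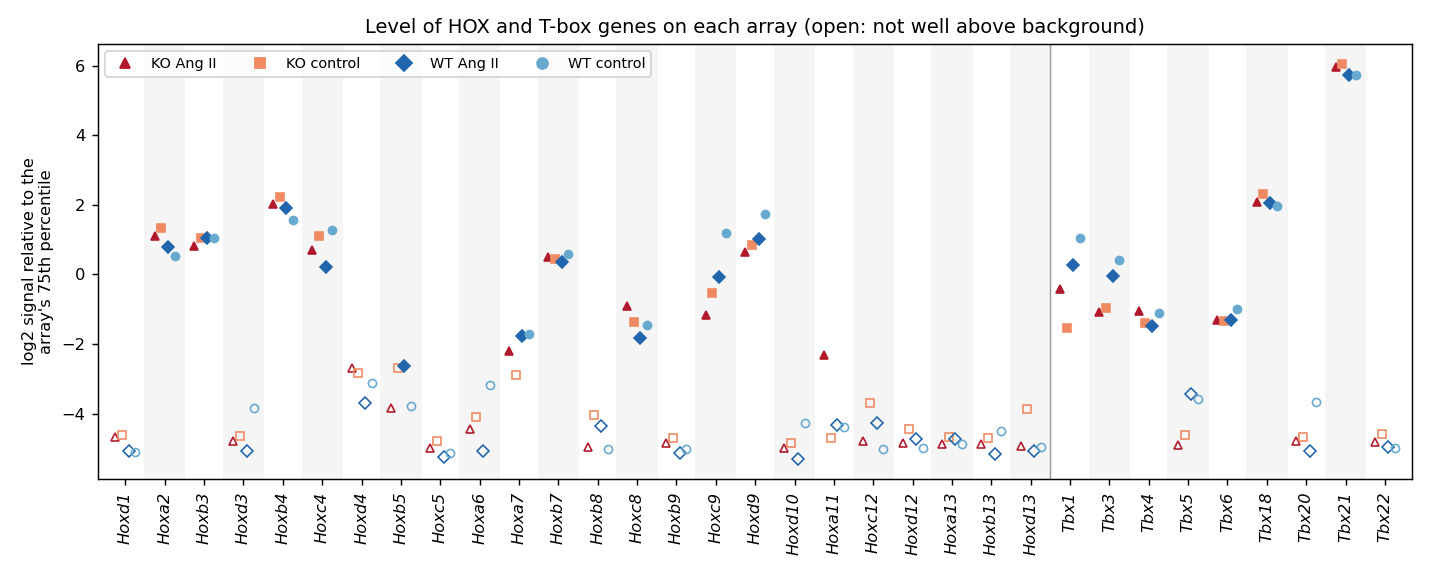
Levels of HOX and T-box genes, as log2 signal relative to the 75th percentile of the array, with 1 point per array and open points where the signal was not well above background. Each gene is read across its own points, and of the 14 with filled points on all 4 arrays Tbx1, Hoxc9 and Tbx3 are spread most widely and Hoxb3 and Hoxb7 least.

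Among T-box genes, Tbx1, a pharyngeal arch gene needed for the aortic arch arteries, gave signals of 39 on KO Ang II, 16.4 on KO control, 75.2 on WT Ang II and 122 on WT control. Its levels were -0.42 on KO Ang II, -1.53 on KO control, 0.27 on WT Ang II and 1.05 on WT control. Both KO arrays were below both WT arrays. Tbx3, a repressor that patterns limb, mammary gland and the cardiac conduction system, read -1.09 on KO Ang II, -0.97 on KO control, -0.04 on WT Ang II and 0.41 on WT control, again with both KO arrays the lower. Its second probe was flagged on WT Ang II alone, at -2.79, and gave no second measure of the difference.

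Tbx18, which marks mural cells and epicardium, read 2.08 on KO Ang II, 2.30 on KO control, 2.05 on WT Ang II and 1.97 on WT control. The hindlimb and lung gene Tbx4 read -1.04 on KO Ang II, -1.39 on KO control, -1.48 on WT Ang II and -1.10 on WT control. Tbx6, a gene of the paraxial mesoderm that forms the somites, read -1.32 on KO Ang II, -1.34 on KO control, -1.30 on WT Ang II and -0.99 on WT control. The cardiac factors Tbx5 and Tbx20 were not well above background on any array. Neither were the heart muscle genes Myh6, Myh7, Tnni3, Nppa and Myl7, while 2 of 7 cardiac markers, Tnnt2 and Actc1, were well above background on all 4.

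Tbx21 encodes T-bet, a master regulator of type 1 T helper cells and natural killer cells. Its probe gave signals of 3240 on KO Ang II, 3140 on KO control, 3330 on WT Ang II and 3100 on WT control, or levels of 5.96 on KO Ang II, 6.05 on KO control, 5.74 on WT Ang II and 5.72 on WT control. None of the 5 T and B cell markers with a probe, Cd3e, Cd3g, Cd2 and Lck among them, was well above background on any array. What transcript this probe reported was not tested.

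The first comparison asks what Ang II did in vessels of each genotype. In WT vessels 2 genes were at least 2-fold lower on WT Ang II than on WT control and 0 were at least 2-fold higher, of 16 compared. Among all named genes 0.887% were at least 2-fold lower and 1.43% at least 2-fold higher, as a value or a bound. Hoxc9 was 2.40-fold lower, a log2 ratio of -1.27 with a spot error of 0.21, and Hoxc4 was 2.12-fold lower, a log2 ratio of -1.09 with a spot error of 0.21. The spot error comes from the scanner software's error of each signal and covers the array measurement alone. Of the 15 genes measured on both arrays 11 were below 0 and 4 above, with a median log2 ratio of -0.31, against 0.04 over all named genes.

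In KO vessels 1 of 16 genes was at least 2-fold higher on KO Ang II than on KO control and 0 were at least 2-fold lower. The shares over all named genes were 0.184% higher and 0.789% lower. The gene was Tbx1, 2.16-fold higher with a log2 ratio of 1.11 and a spot error of 0.27. Hoxc9 and Hoxc4 had log2 ratios of -0.63 and -0.41 in KO, the same sign as in WT. The median over the 14 genes measured on both arrays was -0.16, against -0.01 over all named genes.

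Tbx1 had Ang II ratios of opposite sign, a log2 ratio of 1.11 in KO and -0.78 in WT. The difference of the responses was 1.90, with a spot error of 0.34, and it could not be tested with 1 array per group. With normexp background correction the difference was 0.69 and the ratio in KO was 0.28, both under 2-fold. It was the one gene of 14 past 2-fold in the higher direction, and 0 were past 2-fold in the lower direction. Among all named genes well above background on all 4 arrays 1.27% were past 2-fold higher and 2.87% lower.

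The KO was then set against WT. Without Ang II, 3 of 15 genes were at least 2-fold lower on KO control than on WT control and 0 were at least 2-fold higher, where 3.31% of all named genes were lower and 2.41% higher. Tbx1 was 5.99-fold lower, with a log2 ratio of -2.58 and a spot error of 0.26. Hoxc9 was 3.33-fold lower, at -1.74 with a spot error of 0.22, and Tbx3 was 2.60-fold lower, at -1.38 with a spot error of 0.24. Hoxd9 was next in size at -0.89, and Hoxa2 was the largest on the higher side at 0.81. Hoxa7 was at least 1.72-fold lower on KO control, where it was not well above background.

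With Ang II, 2 of 17 genes were at least 2-fold lower on KO Ang II than on WT Ang II and 0 were at least 2-fold higher, where 4.42% of all named genes were lower and 1.84% higher. They were Hoxc9, 2.14-fold lower with a log2 ratio of -1.10 and a spot error of 0.24, and Tbx3, 2.07-fold lower with a log2 ratio of -1.05 and a spot error of 0.24. Tbx1 was 1.61-fold lower, and Hoxc8 was the largest on the higher side at 0.91. The KO comparison with Ang II shares no array with the one without it. The one without it shares the WT control array with the Ang II comparison in WT, and Hoxc9, Tbx1 and Tbx3 were highest on that array. With the background correction normexp, 0 genes were past 2-fold in KO against WT with Ang II and in Ang II against control of either genotype. Hoxc9 and Tbx1 were past 2-fold in KO against WT without Ang II under all 8 alternatives. With normexp they were only just past it, with log2 ratios of -1.04 for Hoxc9 and -1.02 for Tbx1. Each has 1 probe with 1 spot, so averaged probes, median spots and kept outlier spots could change these ratios little or not at all. The authors' table also gave the main values, -1.74 for Hoxc9 and -2.58 for Tbx1. When the probes of a gene were averaged, Tbx3 had a log2 ratio of -0.24 without Ang II and -0.90 with it.

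**Figure D3:**
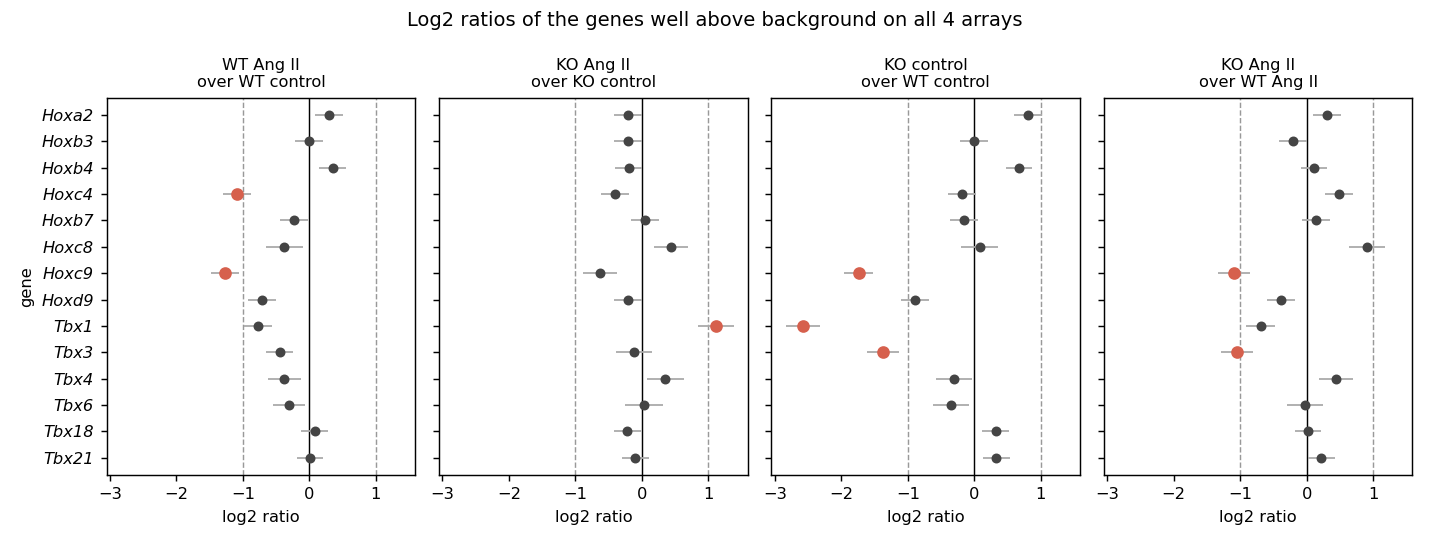
Log2 ratios of the 14 HOX and T-box genes well above background on all 4 arrays, in the 4 single comparisons, with the spot error as a bar and dashed lines at 2-fold. Red points are at least 2-fold. Tbx1 and Hoxc9 in KO against WT without Ang II, at -2.58 and -1.74, lie furthest from 0.

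An additive model of genotype and treatment, fitted with limma over the 9387 genes that carried the flag on 2 or more arrays, took the 4 arrays together with 1 residual degree of freedom. It counts any difference between the responses as error. For KO minus WT, 0 of the 15 HOX and T-box genes tested had a Benjamini-Hochberg adjusted p under 0.05, and 0 of all genes did. At an unadjusted p under 0.05 there were 6 of the 15, against 26.1% of all genes. The smallest adjusted p among the 15 in limma was 0.0989, for Tbx3. Its log2 difference was -1.21 with SE of 0.17, lower in KO in 2 of 2 pairs of arrays. Hoxc9 had a log2 difference of -1.42 with SE 0.22 and Tbx1 one of -1.63 with SE 0.49.

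The call depended on how limma shares variance among genes. With a trend of the variance on the mean level, limma called 1307 genes, or 13.9%, and 3 of the 15 HOX and T-box genes, all lower in KO. These were Hoxc9 with adjusted p = 0.00779, Tbx3 with adjusted p = 0.0123 and Tbx1 with adjusted p = 0.0230. Under the other settings the smallest adjusted p of a HOX or T-box gene ran between 0.0579 and 0.363. For Ang II minus control, limma gave 0 adjusted calls among the 15, and 2, Hoxc4 and Hoxc9, at an unadjusted p under 0.05, against 3.84% of all genes. Where nothing says that these RNA samples came from separate rats, such p-values measure the spread between these arrays only.

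Across the 4 arrays the genes differed in how closely they held their level. The 14 genes well above background on all 4 had a median range of 0.74 between the highest and the lowest array, against 0.50 for all 8600 such genes. Of the 14, 5 spanned at least 2-fold, or 35.7%, against 11.7%. The highest array was 5.99-fold above the lowest for Tbx1, 5.15-fold for Hoxc9, 2.83-fold for Tbx3, 2.14-fold for Hoxd9 and 2.12-fold for Hoxc4. The range of Tbx1 was as large as or larger than that of 99.9% of the 8600 genes, and that of Hoxc9 than 99.8%. Without WT control, 3 of 14 genes spanned at least 2-fold, namely Hoxc9, Tbx1 and Tbx3, against 8.57% of all genes, and the median range was 0.41 against 0.40. WT control was the highest array for 8 of the 14 and for 1729 of the 8600.

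Dimmer genes had wider ranges in general. Split by mean level into 4 sets of 2150 genes, the dimmest set had 20.8% that spanned at least 2-fold, and 1 of the 4 HOX and T-box genes in it did, Tbx3. In the next set the share was 12.9%, and 4 of 7 did, Hoxc4, Hoxc9, Hoxd9 and Tbx1. Of the 3 genes in the brighter sets, Hoxb4, Tbx18 and Tbx21, 0 did.

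**Figure D4:**
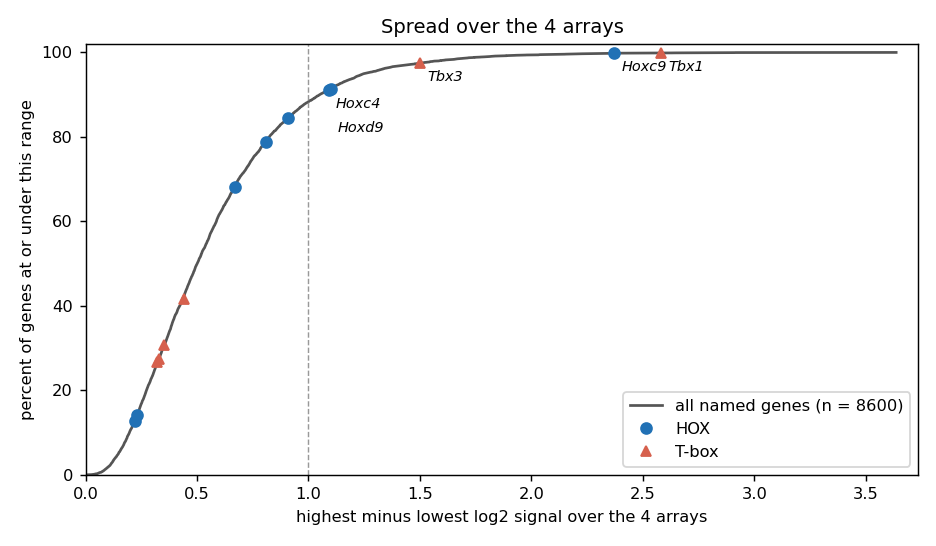
Percent of the 8600 genes well above background on all 4 arrays (line) with a range over the arrays, in log2 units, at or under the value on the horizontal axis, with the 14 HOX and T-box genes as points and a dashed line at 2-fold. Tbx1, Hoxc9, Tbx3, Hoxd9 and Hoxc4 lie past 2-fold.

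Promoters from the RefSeq table, assembly GRCr8, were matched for 21 of the 34 genes. Each covers 250 bases before the start and 50 from it. The sequences of Tbx1, which has 2 entries, and of Hoxc4 are given because these genes were past 2-fold in a comparison above. Hoxc9 and Tbx3 are named only. Capitals mark 3 core promoter motifs wherever they stood on either strand. The first motif was the TATA box, searched as TATAAA. The next was CCAAT, a binding motif of the factor NF-Y. The last was the GC box of Sp1, searched as GGGCGG.
Tbx1, upstream start, chr11:95913360-95913659, plus strand: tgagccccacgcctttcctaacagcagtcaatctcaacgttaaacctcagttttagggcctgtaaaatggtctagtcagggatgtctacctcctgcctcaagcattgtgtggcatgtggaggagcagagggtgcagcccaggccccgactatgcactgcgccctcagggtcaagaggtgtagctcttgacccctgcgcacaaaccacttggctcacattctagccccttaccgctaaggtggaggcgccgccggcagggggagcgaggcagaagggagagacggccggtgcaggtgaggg
Tbx1, downstream start, chr11:95915154-95915453, plus strand: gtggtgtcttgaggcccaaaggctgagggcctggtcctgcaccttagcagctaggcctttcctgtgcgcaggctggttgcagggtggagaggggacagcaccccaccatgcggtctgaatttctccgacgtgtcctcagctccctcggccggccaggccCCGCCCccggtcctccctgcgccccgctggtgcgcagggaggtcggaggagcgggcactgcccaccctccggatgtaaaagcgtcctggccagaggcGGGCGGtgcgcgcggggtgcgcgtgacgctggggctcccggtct
Hoxc4, chr7:136048809-136049108, plus strand: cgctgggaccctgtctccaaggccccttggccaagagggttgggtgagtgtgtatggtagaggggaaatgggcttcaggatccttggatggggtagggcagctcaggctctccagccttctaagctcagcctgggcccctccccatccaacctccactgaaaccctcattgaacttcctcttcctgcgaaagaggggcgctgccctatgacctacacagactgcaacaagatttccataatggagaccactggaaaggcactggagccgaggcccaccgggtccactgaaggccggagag
The downstream Tbx1 start holds a pair of GC boxes, and the other sequences hold none of these motifs. In all, 11 of the 22 promoters of HOX and T-box genes (50%) held a GC box, against 33.1% of 33469 promoters. The CCAAT motif was found in 13 of 22 (59.1%), against 37.5%, and a TATA box in 2 of 22 (9.09%), against 14.2%. The median GC content was 61.7%, against 51.7% over all promoters. No binding was measured, and a match is a description of the letters.

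HOX proteins bind DNA with partners of the PBX, MEIS and PKNOX families. Of 9 such genes with a probe, 7 were well above background on all 4 arrays, where 51.9% of all named genes were. Of these 7, 0 were past 2-fold in any comparison. Among all 8600 genes well above background on all 4 arrays 11.7% spanned at least 2-fold, so a count of 0 in 7 does not set these genes apart. Pbx2, a common PBX partner, read 0.26 on KO Ang II, 0.60 on KO control, 0.08 on WT Ang II and 0.34 on WT control. The log2 ratios of Pbx2, Pbx3, Meis1, Meis3, Pknox1 and Pbxip1 lay between -0.54 and 0.78. Pbx4 was flagged on KO Ang II and WT control and gave log2 bounds of -1.74 on WT Ang II against WT control and -1.15 on KO control against WT control, both lower.

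Genes that set and keep HOX expression, the CDX factors and the trithorax and Polycomb groups, numbered 19 with a probe. Of them 14 were well above background on all 4 arrays, where 51.9% of all named genes were, and Cdx2, Cdx4, Psip1 and Ezh2 were not on any. Kdm6b, a demethylase that removes the Polycomb mark on histone H3, was at least 2-fold higher on KO control than on WT control, with a log2 ratio of 1.28, and had 0.92 with Ang II. Its levels were 3.20 on KO Ang II, 3.88 on KO control, 2.28 on WT Ang II and 2.60 on WT control. Cbx2, a Polycomb subunit, had a log2 bound of -1.19 in KO control against WT control. Retinoic acid, made in the trunk of the embryo, is an inducer of front HOX genes. Of 18 genes of its pathway with a probe 10 were well above background on all 4 arrays, the receptors Rara, Rarb and Rarg among them. The share over all named genes was 51.9%.

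Other transcription factors that mark position numbered 43 with a probe, of which 15 were well above background on all 4 arrays, 4 on some and 24 on none. Of all named genes 51.9% were on all 4 and 39.9% on none. The heart and second heart field factors Nkx2-5, Isl1, Gata4, Hand1 and Hand2 were among the 24. The related Nkx2-6 was among the 15, with levels of -2.08 on KO Ang II, -1.91 on KO control, -1.94 on WT Ang II and -1.95 on WT control. Gata6, Foxc1, Foxc2, Prrx1 and Twist1, factors of vessel wall and mesenchyme, were among the 15. Meox1, a somite factor, read -2.33 on KO Ang II, -2.08 on KO control, -0.26 on WT Ang II and -0.13 on WT control. Its KO against WT log2 ratios were -1.95 without Ang II and -2.07 with it. Uncx, another somite factor, had a log2 ratio of -2.20 for Ang II in KO and -0.82 in WT. With Ang II, Pax3, a neural crest and muscle precursor factor, had a log2 ratio of -1.09 in KO against WT, and the kidney and limb mesoderm factor Osr1 one of 1.06.

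Markers of cell types also differed between genotypes, and in tissue RNA fewer cells of a type and less RNA per cell cannot be told apart. The log2 of the summed signal of 8 adventitial fibroblast markers was 8.85 on KO Ang II, 8.99 on KO control, 9.59 on WT Ang II and 9.53 on WT control. Of these, 7 were well above background on all 4 arrays and Ly6c on none, and the median log2 ratio of the 7 in KO against WT was -0.39 without Ang II and -0.75 with it. The collagen genes had the lowest ratios of the 7, with -1.52 and -1.78 for Col1a1 and -1.45 and -1.47 for Col3a1 in the same comparisons, whereas Dcn had 0.14 and -0.14 and Gsn 0.09 and -0.15. The sum over 7 macrophage markers was 4.43 on KO Ang II, 4.06 on KO control, 5.21 on WT Ang II and 4.93 on WT control, with 4 of the 7 well above background on all 4 arrays and Mrc1 on none. The sum over 10 smooth muscle markers was 7.80 on KO Ang II, 7.67 on KO control, 7.19 on WT Ang II and 7.35 on WT control. Myh11 held the largest part of it, with KO against WT log2 ratios of 0.34 without Ang II and 0.66 with it. Cnn1 had 1.15 and 0.53. Des was lower without Ang II, with -1.11 and 0.59, and Lmod1 was lower with it, with 0.61 and -0.26. The sum over 6 lymphatic endothelium markers was 7.17 on KO Ang II, 7.32 on KO control, 8.06 on WT Ang II and 7.67 on WT control, with 2 of the 6 well above background on all 4 arrays. Prox1 made up most of this sum, at 6.92 on KO Ang II, 6.98 on KO control, 7.89 on WT Ang II and 7.46 on WT control. Its KO against WT log2 ratios were -0.48 without Ang II and -0.98 with it, whereas Pdpn had 0.43 and -0.31. Reln and Lyve1 were well above background on the WT arrays alone. Their KO against WT log2 bounds, without and with Ang II, were -3.32 and -2.17 for Reln and -2.55 and -1.07 for Lyve1. Ccl21 was well above background on WT control alone. Flt4 went the other way without Ang II, with a bound of 1.09, and had a bound of -0.05 with it. The sum over 7 white adipocyte markers was 2.95 on KO Ang II, 2.66 on KO control, 2.90 on WT Ang II and 3.21 on WT control. In KO against WT, Adipoq had a bound of -2.16 without Ang II and a ratio of -1.22 with it, and Fabp4 had bounds of -1.25 and -0.77. The 2 markers well above background on all 4 arrays had smaller ratios, -0.29 and 0.23 for Plin4 and -0.58 and 0.03 for Cfd. Lep was not well above background on any array. Fibroblast, macrophage and lymphatic sums were lower, and smooth muscle sums higher, on both KO arrays than on both WT arrays. The endothelium, brown adipocyte, Schwann cell and mesothelium sums were also lower on both KO arrays, and the skeletal muscle sum was higher. Among HOX and T-box genes 6 were lower on both KO arrays, Hoxc9, Hoxd9, Tbx1 and Tbx3 among them. The 5 higher on both were Hoxa2, Hoxb4, Hoxc8, Tbx18 and Tbx21. Every one of these marker lists also held a marker with a ratio or bound the other way in a KO against WT comparison. The part of these markers in the HOX and T-box values was not tested.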

How the data were processed

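Scanner output was deposited as intensity values, with 58717 spots for 45598 probes on each array. Per the file headers, background had already been subtracted from these intensities within the array. Agilent Feature Extraction is given as 12.1.1.1 by the submitters' processing notes and as 10.7.1.1 by the headers. The authors' deposited table holds log2 values. For 98.3% to 98.4% of probes they matched the log2 signal, to within 0.01, once shifted by 1 offset per array, and their medians were 2.11 for KO Ang II, 2.27 for KO control, 2.22 for WT Ang II and 2.29 for WT control. The sources used here do not explain the offsets. The arrays shared a slide and a scan time, and position on the slide cannot be told apart from group.

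Outlier spots (301 to 372 per array) were left out, 4 probes without a spot were dropped, and each probe's spots were averaged before scaling to the 75th percentile. Replicate spots had a median SD of 0.0712 to 0.0797 (log2), and each HOX or T-box probe had 1 spot. The number of arrays limits the precision. Accessions were matched to a RefSeq gene table of GRCr8, which named 21107 probes and left 24487 unnamed. A gene took its brightest probe among those flagged on any array. Where 1 side of a comparison was dim, a bound was taken from the lowest probe whose every spot was flagged on that array, or from the dim value where that was higher. limma 3.58.1 in R 4.3.3 fitted the additive model over all genes, after a test on simulated data. HOX and T-box genes are named, with values for those flagged on all arrays or past 2-fold, as are list genes past 2-fold. Some genes are counted but not reported here by name. The genes, lists and tests were chosen with earlier results of these data known.

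The alternatives were other scaling percentiles, normexp background correction, quantile normalization, averaged probes, kept outlier spots, median spots, the authors' table, other size rules, dim values as read, other detection rules and other limma settings. Normexp used the median pixel signal in place of the mean.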

Additional observations from a re-analysis of the deposited data

Results flagged for a closer look

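The Ang II response of Tbx1 ran in opposite directions in the genotypes, with a log2 ratio of 1.11 in KO and -0.78 in WT and a difference of 1.90. With normexp the difference was 0.69. It was not tested, since each group had 1 array.

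Signals also appeared in second probes that entered no comparison. The second Hoxa2 probe was well above background on WT Ang II, at -2.25, and on WT control, at -2.47, and on neither KO array. Both KO values lay below both WT values, opposite to the probe used. The second Tbx3 probe was well above background on WT Ang II alone, at -2.79. The second Hoxa11 probe was well above background on WT control alone, at -1.87, whereas the probe used was so on KO Ang II alone.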

How the results depend on the processing

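None of the 9 gene ratios past 2-fold changed sign under any of the 8 alternatives run on them. Each HOX or T-box probe had 1 spot, so median spots and kept outlier spots could change these ratios only through the scaling. With normexp, genes at least 2-fold lower numbered 0 for Ang II in WT (2 in the main setting) and 0 for KO Ang II against WT Ang II (2), genes at least 2-fold higher numbered 0 for Ang II in KO (1) and 0 for the difference of responses (1), and the median range over arrays was 0.31 (0.74). Normexp also lowered counts over all genes, in KO control against WT control to 23 higher and 85 lower, where the main setting gave 166 and 243. With averaged probes, 1 gene was lower in KO Ang II against WT Ang II and the median range was 0.55. At 1.5-fold, genes lower numbered 4 for Ang II in WT, 1 in KO and 5 for KO control against WT control, and genes higher numbered 2 for KO control against WT control, 2 for KO Ang II against WT Ang II and 5 for the difference. At 3-fold, counts were 0 for Ang II in each genotype and KO Ang II against WT Ang II. With dim values as read, genes higher numbered 1 for Ang II in WT, 2 in KO and 1 for KO Ang II against WT Ang II. Leaving out 1 array, a step chosen after seeing the data, can only lower a range or keep it. It gave a median range of 0.41 to 0.57, and of 0.37 to 0.44 over all genes. In the additive fit the variance trend called 3 genes for KO minus WT, where the main setting called 0. Changes with the size rule or with an array left out could go only 1 way. The part of the normexp offset of 50 in the normexp changes was not tested. Neither was the cause of the other changes. In 136 other cases a count or the median range under an alternative stayed close to its main value. Cases with median spots or kept outlier spots, which could hardly differ, are among them. Detection with a gene name column was not run, since genes were found by accession alone. No paired analysis was possible because all arrays carry the replicate number 1, so that number defines no block. The additive fit instead sets KO against WT within treatment.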
